A study of Homo sapiens with 4 samples.

Results

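The 10 genes described here encode repressors of the circadian clock or its direct output, and all 10 were found by symbol among the 28395 genes of the count table deposited for A375 cells. They are the period genes PER1, PER2 and PER3, the cryptochrome genes CRY1 and CRY2, the REV-ERB nuclear receptor genes NR1D1 and NR1D2, the D-box factor gene DBP, and BHLHE40 and BHLHE41, which encode the repressors DEC1 and DEC2. A375, an established melanoma cell line of human origin, is given as wild type in its genotype label, although the line is known for an activated BRAF. Cells were kept for 6 h with 0.01% ozonated olive oil, and control cells for 6 h with 0.01% olive oil, with 2 libraries for each oil, numbered 1 and 2, and no untreated cells. Both groups grew in DMEM with 10% serum. The sources used here give neither the time of day at harvest nor a step that sets the cells' clocks to a common phase. Nothing says that the libraries came from separate cultures, so the p-values measure library-to-library spread that may be technical only.

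The clock is a feedback loop of transcription. CLOCK (or NPAS2) and BMAL1 bind E-box elements and switch on the PER and CRY genes, whose proteins return to the nucleus and silence that pair. A second loop runs through the REV-ERB receptors, which repress BMAL1 in competition with the ROR activators. DEC1 and DEC2 compete for the same E-boxes, and DBP, itself driven from E-boxes, passes the rhythm to D-box genes such as the PER genes. Several of these genes also answer signals from outside the loop: PER1 is a fast responder to CREB signalling and glucocorticoids, and BHLHE40 and BHLHE41 are known targets of hypoxia signalling. In these bulk libraries, less RNA of a gene per cell cannot be told apart from fewer cells that make it.

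As a description of sequence, the E-box CACGTG and the D-box letters TTATGTAA or TTACGTAA were looked for on both strands of the RefSeq promoter windows (GRCh38.p14, 250 bases before to 50 after an annotated start). The 10 genes had 13 windows. An E-box stood in 4 of them, against 7.26% of all 35116 windows, and a D-box in 3, against 1.01% of all windows. These are matches of letters, not shown sites. The windows that held either element are printed because they show how the loop's own elements are spread over genes that lay on opposite sides when the library numbers were compared. Capitals mark the E-box or D-box, all lines run 5′ to 3′, and TTACATAA is a D-box read on the other strand.
PER1 (chr17:8152355-8152654, minus strand): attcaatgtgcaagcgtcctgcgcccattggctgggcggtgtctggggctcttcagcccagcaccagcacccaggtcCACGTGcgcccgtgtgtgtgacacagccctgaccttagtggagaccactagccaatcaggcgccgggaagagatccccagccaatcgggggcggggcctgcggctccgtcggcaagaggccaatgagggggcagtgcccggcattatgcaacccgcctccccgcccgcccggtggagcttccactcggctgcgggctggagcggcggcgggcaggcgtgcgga
PER2 (chr2:238288561-238288860, minus strand): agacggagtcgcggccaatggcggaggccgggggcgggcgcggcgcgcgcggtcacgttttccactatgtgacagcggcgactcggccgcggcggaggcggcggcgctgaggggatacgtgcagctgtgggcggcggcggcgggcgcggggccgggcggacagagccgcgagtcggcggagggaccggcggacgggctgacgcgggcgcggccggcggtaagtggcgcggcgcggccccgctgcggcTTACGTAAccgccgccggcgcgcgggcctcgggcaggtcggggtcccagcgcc
PER3 (chr1:7784041-7784340, plus strand): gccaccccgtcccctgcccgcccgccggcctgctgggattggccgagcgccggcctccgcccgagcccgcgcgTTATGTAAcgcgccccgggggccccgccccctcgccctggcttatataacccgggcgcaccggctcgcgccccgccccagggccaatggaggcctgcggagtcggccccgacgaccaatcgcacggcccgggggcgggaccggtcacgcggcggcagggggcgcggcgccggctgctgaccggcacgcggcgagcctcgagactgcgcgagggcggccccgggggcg
NR1D2 (chr3:23945871-23946170, plus strand): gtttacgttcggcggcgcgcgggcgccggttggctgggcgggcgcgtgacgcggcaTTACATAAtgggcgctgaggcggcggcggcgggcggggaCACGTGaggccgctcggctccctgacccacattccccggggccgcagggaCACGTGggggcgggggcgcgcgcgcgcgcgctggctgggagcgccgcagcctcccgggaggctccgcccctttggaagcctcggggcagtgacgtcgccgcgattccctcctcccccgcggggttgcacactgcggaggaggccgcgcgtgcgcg
BHLHE40 (chr3:4979187-4979486, plus strand): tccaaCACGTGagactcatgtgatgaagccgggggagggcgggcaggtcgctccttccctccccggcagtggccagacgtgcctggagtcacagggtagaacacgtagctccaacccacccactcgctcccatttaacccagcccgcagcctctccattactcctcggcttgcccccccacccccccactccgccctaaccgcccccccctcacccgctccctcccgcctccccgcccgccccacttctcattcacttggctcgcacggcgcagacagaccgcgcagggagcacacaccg
BHLHE41 (chr12:26124988-26125287, minus strand): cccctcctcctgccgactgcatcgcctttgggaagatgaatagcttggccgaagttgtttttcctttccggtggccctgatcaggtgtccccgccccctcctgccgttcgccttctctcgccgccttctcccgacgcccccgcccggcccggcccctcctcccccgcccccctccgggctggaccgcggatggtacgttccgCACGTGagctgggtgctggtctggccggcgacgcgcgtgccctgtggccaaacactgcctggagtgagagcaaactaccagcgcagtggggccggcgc

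The NR1D2 window belongs to an annotated start downstream of the gene's first one, and it was the window with the most of these elements, 2 E-boxes and 1 D-box. The PER2 window likewise belongs to an annotated start inside the gene, downstream of its outermost start. Its D-box lay across that inner start, beginning 3 bases before it, while that of PER3 began 177 bases before it. The E-box began 173 bases before the start in PER1, 245 bases before it in BHLHE40 and 48 bases before it in BHLHE41. In the windows of CRY1, CRY2, NR1D1 and DBP, neither set of letters was found, which says nothing of elements outside 300 bases. The full cAMP element TGACGTCA was in 0 of the 13 windows, against 1.85% of all windows, and its first 5 letters, TGACG, were in 6 of them, against 24.6% of all windows. The core of the HIF element, ACGTG or GCGTG, which the E-box contains, was in 12 of 13, against 48.4% of all windows. GC content was 46.3% in the first CRY2 window and 63.0% to 81.0% in the rest of the 13. The shares of all windows, here and above, were not matched for GC content. The PER3 windows also overlap each other. The nuclear receptor hexamer AGGTCA was in 3, against 13.8% of all windows, and the antioxidant element core TGACNNNGC in 5, against 13.3%.

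Total counts ranged from 22245807 to 27772480 per library. The libraries split first by their number: the first principal component held 69.8% of the variance and separated libraries 1 from libraries 2, and the second held 23.0% and separated the oils. The melanoma identity was read from SOX10, the neural crest factor, at 293 and 361 CPM with the ozonated oil and 278 and 301 CPM with olive oil. Of the other melanoma markers, S100B was at 3.32 and 7.44 CPM with the ozonated oil and 3.33 and 9.01 CPM with olive oil. S100A1 was at 5.53 and 10.7 CPM with the ozonated oil and 4.81 and 13.4 CPM with olive oil. MITF, the melanocyte master factor, averaged 24.3 ± 0.22 CPM with the ozonated oil and 30.6 ± 7.75 CPM with olive oil (SD, n = 2 each). The pigment genes PMEL and MLANA were under 1.4 CPM in every library, so the markers of the pigmented state were near absent. The summed level of 3 keratinocyte markers (KRT5, KRT14, KRT1) was 8.09 to 13.7 CPM with the ozonated oil and 11.3 to 17.1 CPM with olive oil, nearly all from KRT14. The 3 fibroblast markers (COL1A1, COL1A2, PDGFRB) summed to 10.6 CPM in both ozonated libraries and 8.31 to 8.35 CPM in the olive oil libraries, mostly from PDGFRB, and COL1A2 had counts only in ozonated library 2. Leukocyte and endothelial markers (PTPRC, PECAM1, CDH5) summed to 2.31 to 3.19 CPM with the ozonated oil and 2.05 to 2.60 CPM with olive oil, mostly from PECAM1. The part of these markers in the clock genes' values was not tested.

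Between the oils, the question was whether clock transcripts differ after 6 h with the ozonated oil. No clock gene passed: 0 of 10 had an adjusted p under 0.05 in edgeR's quasi-likelihood test without a block, where 0% of all 14841 tested genes were called higher and 0% lower, and 0 of 10 had an unadjusted p under 0.05, against 3.84% of all tested genes. DESeq2 and the edgeR exact test, which called 0.438% and 0.236% of all genes, also called 0 of the 10, as did limma-voom, which called 0 genes. DESeq2 gave no adjusted p for PER2, PER3 and DBP, so it could not call them. In edgeR's quasi-likelihood test the adjusted p was 0.9998 for each of the 10. Their median log2 fold change was 0.40, against 0.00 over all tested genes. The medians were 0.13 within number 1 and 0.49 within number 2. Within both numbers, 6 of the 10 were higher with the ozonated oil (31.6% of all tested genes), 1 was lower (31.1%) and 3 went opposite ways (37.3%). BHLHE40 was the 1 gene whose ozonated libraries both lay above both olive oil libraries (15.3% of all tested genes), and CRY1 the 1 gene whose ozonated libraries both lay below them (15.7%).

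**Figure D1:**
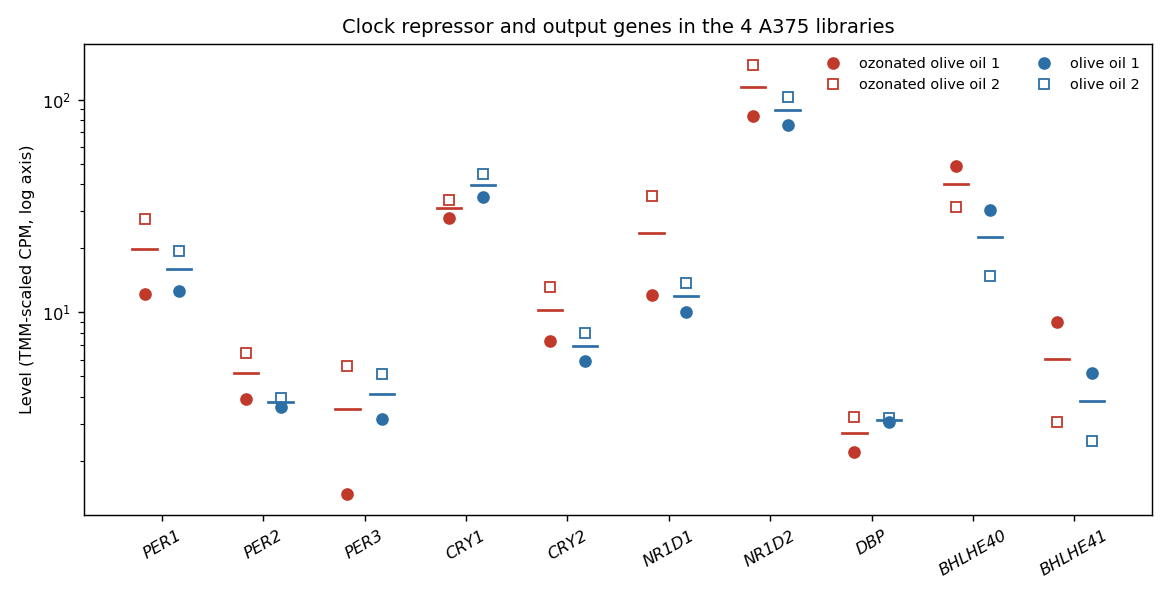
Level of each clock gene in each library, in TMM-scaled CPM on a log axis, with the ozonated oil in red left of olive oil in blue; filled circles are libraries numbered 1, open squares libraries numbered 2, and bars are group means. The groups are apart for BHLHE40 (31.3 and 48.7 CPM with the ozonated oil, against 14.8 and 30.2 CPM with olive oil) and CRY1 (27.9 and 33.8 CPM with the ozonated oil, against 34.9 and 44.5 CPM with olive oil), and overlap for the other 8 genes.

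BHLHE40 (chr3:4979437-4985323, RefSeq, GRCh38.p14) encodes DEC1, a repressor that binds E-boxes and also answers hypoxia. It lay at 48.7 and 31.3 CPM in ozonated libraries 1 and 2, against 30.2 and 14.8 CPM in olive oil libraries 1 and 2. Both ozonated libraries were above both olive oil libraries, by a narrow gap between ozonated library 2 and olive oil library 1. The ratio was 1.61 within number 1 (95% exact counting interval 1.47 to 1.76) and 2.12 within number 2 (1.87 to 2.41). These intervals, here and for the other genes, cover counting error only. The log2 fold change was 0.83 ± 0.41 (SE, n = 2 each; unadjusted p = 0.0972, adjusted p = 0.9998 by edgeR), and it ranged from 0.41 to 1.44 when a library was left out. BHLHE40 had the smallest p of the 10 genes and stood at rank 1133 of 14841.

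BHLHE41 (chr12:26120030-26125037) encodes DEC2, the close relative of DEC1. Its levels were 8.97 and 3.05 CPM in ozonated libraries 1 and 2 and 5.17 and 2.48 CPM in olive oil libraries 1 and 2. The ozonated library was higher within each number, but the groups overlapped, since ozonated library 2 lay below olive oil library 1. The ratio of 1.74 within number 1 (1.40 to 2.16) rested on 211 against 146 counts, and the ratio of 1.23 within number 2 (0.861 to 1.75) on 66 against 67 counts, so the second was within counting error. The fitted value was 0.65 ± 0.64 (SE; unadjusted p = 0.356 by edgeR), and it was -0.33 without ozonated library 1.

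NR1D1 (chr17:40092793-40100589) encodes REV-ERB alpha, which represses BMAL1 and many metabolic genes. It lay at 12.1 and 35.2 CPM in ozonated libraries 1 and 2, against 10.0 and 13.8 CPM in olive oil libraries 1 and 2. Ozonated library 2 stood above the other 3, while ozonated library 1 lay between the olive oil libraries. The ratio was 1.21 within number 1 (1.02 to 1.43) and 2.56 within number 2 (2.26 to 2.91). The log2 fold change of 0.99 ± 0.53 (SE; unadjusted p = 0.122, adjusted p = 0.9998 by edgeR) was the highest of the 10, and it was 0.03 without ozonated library 2 and 1.57 without ozonated library 1. NR1D1 overlaps THRA, the thyroid hormone receptor gene on the opposite strand, over 1081 bases. THRA had 413 and 339 counts with the ozonated oil and 489 and 405 counts with olive oil, with a log2 fold change of 0.04 ± 0.19 (SE), so the NR1D1 pattern was not seen there.

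NR1D2 (chr3:23945286-23980617) encodes REV-ERB beta, and it had the highest level of the 10 genes in CPM and per kilobase. It lay at 83.6 and 144.6 CPM in ozonated libraries 1 and 2 and at 76.0 and 103.2 CPM in olive oil libraries 1 and 2. The ozonated library was higher within each number and the groups overlapped. The ratios were 1.10 within number 1 (1.03 to 1.17) and 1.40 within number 2 (1.33 to 1.48), and the fitted value was 0.35 ± 0.30 (SE; unadjusted p = 0.303 by edgeR). It became -0.10 without ozonated library 2. NR1D2 overlaps NKIRAS1 on the opposite strand over 1332 bases, and NKIRAS1 had 523 to 665 counts.

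PER1 (chr17:8140472-8152404) encodes a period protein and is an immediate early gene of CREB signalling. Its levels were 12.2 and 27.5 CPM in ozonated libraries 1 and 2, against 12.6 and 19.5 CPM in olive oil libraries 1 and 2. Within number 1 the oils differed by less than counting error (ratio 0.971, 0.828 to 1.14), and within number 2 the ozonated library was higher (1.41, 1.25 to 1.59). The fitted value of 0.31 ± 0.45 (SE; unadjusted p = 0.526 by edgeR) became -0.39 without ozonated library 2. PER1 shares 5691 bases on its own strand with an overlapping GENCODE gene model that was not analysed here, so some reads could belong to that model.

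PER2 (chr2:238244044-238300065), a period gene whose protein is a core repressor of the loop, lay at 3.91 and 6.47 CPM in ozonated libraries 1 and 2, against 3.58 and 3.97 CPM in olive oil libraries 1 and 2. Ozonated library 2 stood above the other 3 libraries, which lay close together. The ratio was 1.09 within number 1 (0.816 to 1.47), within counting error, and 1.63 within number 2 (1.26 to 2.12). The fitted value was 0.46 ± 0.35 (SE; unadjusted p = 0.251 by edgeR), with 0.05 without ozonated library 2.

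PER3 (chr1:7784291-7845177), a period gene whose loss in the mouse leaves the rhythm largely intact, lay at 1.40 and 5.59 CPM in ozonated libraries 1 and 2, against 3.15 and 5.15 CPM in olive oil libraries 1 and 2. Ozonated library 1 was the low one, with 33 counts against 89 counts in olive oil library 1, a ratio of 0.445 (0.289 to 0.671). Within number 2 the oils did not differ beyond counting error (1.08, 0.843 to 1.39). The fitted value of -0.25 ± 0.70 (SE; unadjusted p = 0.737 by edgeR) became 0.43 without ozonated library 1, 0.15 without olive oil library 2 and -1.56 without ozonated library 2. PER3 had the widest range of the 10 genes when a library was left out.

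CRY1 (chr12:106991364-107093549), the cryptochrome that represses CLOCK and BMAL1 more strongly than CRY2 in mouse cells, was the 1 clock gene lower within both numbers. It lay at 27.9 and 33.8 CPM in ozonated libraries 1 and 2, against 34.9 and 44.5 CPM in olive oil libraries 1 and 2. The groups did not overlap, and the gap between ozonated library 2 and olive oil library 1 was narrow. The ratios were 0.800 (0.724 to 0.884) and 0.759 (0.692 to 0.833), the most alike pair of within-number values among the 10 genes. The log2 fold change was -0.36 ± 0.19 (SE; unadjusted p = 0.112, adjusted p = 0.9998 by edgeR), and it ranged from -0.53 to -0.18 when a library was left out.

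CRY2 (chr11:45847118-45883244), the second cryptochrome, lay on the other side. Its levels were 7.36 and 13.2 CPM in ozonated libraries 1 and 2, against 5.88 and 7.97 CPM in olive oil libraries 1 and 2. The ozonated library was higher within each number, and the groups overlapped because ozonated library 1 lay below olive oil library 2. The ratios were 1.25 within number 1 (1.01 to 1.56) and 1.65 within number 2 (1.38 to 1.98). The fitted value was 0.57 ± 0.37 (SE; unadjusted p = 0.183 by edgeR), with 0.09 without ozonated library 2.

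DBP (chr19:48630030-48637379), the output gene, lay at 2.21 and 3.24 CPM in ozonated libraries 1 and 2, against 3.04 and 3.19 CPM in olive oil libraries 1 and 2. Ozonated library 1 was the low one and the other 3 lay close together. With 52 to 86 counts per library, neither ratio was beyond counting error (0.726, 0.504 to 1.04, and 1.01, 0.729 to 1.41). The fitted value was -0.20 ± 0.35 (SE; unadjusted p = 0.601 by edgeR), and it was 0.05 without ozonated library 1. DBP overlaps SPHK2 on the opposite strand over 688 bases, and SPHK2 had 563 to 955 counts.

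**Figure D2:**
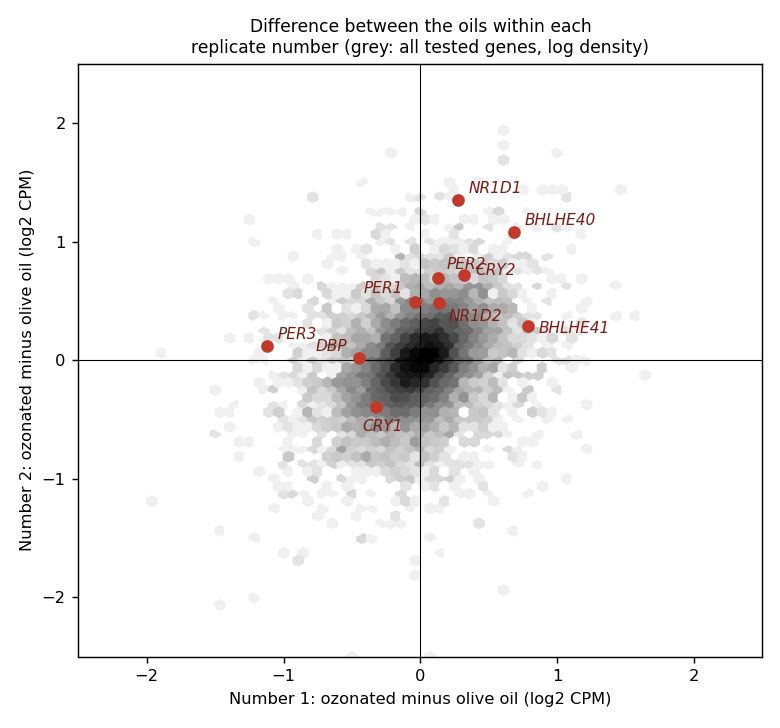
Difference between the ozonated oil and olive oil (log2 CPM) within number 1 on the horizontal axis and within number 2 on the vertical axis; red points are the 10 clock genes and grey cells the density of all 14841 tested genes, with axes ending at 2.5 on either side, which leaves 52 genes outside. NR1D1 (0.27 and 1.35) and BHLHE40 (0.69 and 1.08) lie farthest up, PER3 (-1.12 and 0.12) farthest left, and CRY1 alone in the lower left.

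Within number 2, 9 of the 10 genes had a ratio above 1, with CRY1 the exception, and within number 1, 6 of 10 did. The share of all tested genes above 1 was not computed, and their median log2 difference was 0.0038 within number 2 and -0.0008 within number 1. Within counting error of 1 were PER3 (0.843 to 1.39), DBP (0.729 to 1.41) and BHLHE41 (0.861 to 1.75) in number 2. The same held in number 1 for PER2 (0.816 to 1.47), and for PER1 (0.828 to 1.14) and DBP (0.504 to 1.04), whose ratios there were below 1. The difference between the oils was at least 2-fold for PER3 within number 1 (3.53% of all tested genes in either direction) and for NR1D1 and BHLHE40 within number 2 (4.67% of all tested genes). The difference between the 2 within-number values was widest for PER3 (1.24) and NR1D1 (1.08). That spread was wider than in 95.9% and 94.5% of all tested genes, of which many have higher counts than PER3. With 1 library per oil and number, whether the oil difference itself differed between the numbers was not tested.

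Levels between genes were set side by side as CPM per kilobase of all annotated exons (GENCODE 29). The order of the means over the 4 libraries was NR1D2 (17.5), BHLHE40 (8.14), CRY1 (6.97), NR1D1 (6.41), PER1 (2.56), CRY2 (1.39), BHLHE41 (1.25), PER2 (0.652), PER3 (0.472) and DBP (0.446). NR1D2 was the only one whose 4 libraries (13.1 to 24.8) all lay above every library of the other 9. BHLHE40 (3.85 to 12.7), CRY1 (5.51 to 8.79) and NR1D1 (3.61 to 12.7) overlapped each other. PER1 (1.74 to 3.92) overlapped NR1D1, the next higher gene, and CRY2 (0.948 to 2.13), the next lower one. CRY2 and BHLHE41 (down to 0.629), and PER2 (0.520 to 0.941), PER3 (0.173 to 0.691) and DBP (0.338 to 0.495), overlapped their neighbours as well. The exon length of DBP, 6544 bases, sums the exons of all its annotated transcripts and may be longer than the transcript these cells make.

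The library numbers were also compared. The number is no group of the study, and what it stands for is not given in the sources used here. In edgeR's quasi-likelihood test of the number, with the oil as a further term, 6 of 10 were higher in the libraries numbered 2 (11.1% of all tested genes) and 2 were lower (13.3%). The oil test above had no term for the number, so differences between the numbers stayed in its residual spread. Calls from that test and from this one therefore cannot be set against each other. The mean difference between the numbers was larger in size than the mean difference between the oils for 8 of 10 genes, with CRY1 and BHLHE40 the exceptions, against 62.2% of all tested genes. All 10 differed in the same direction in both oils: 8 above in number 2 (36.9% of all tested genes) and 2 below (36.4%).

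PER3 was higher in number 2 with a log2 value of 1.28 ± 0.31 (SE; adjusted p = 0.00643 by edgeR), made of 1.94 with the ozonated oil and 0.70 with olive oil. NR1D1 had 1.02 ± 0.19 (adjusted p = 0.00114 by edgeR), made of 1.53 with the ozonated oil and 0.45 with olive oil. PER1 had 0.90 ± 0.15 (adjusted p = 0.000384 by edgeR), and NR1D2 had 0.62 ± 0.09 (adjusted p = 0.000145 by edgeR). The cryptochromes passed by less, CRY2 with 0.64 ± 0.19 (adjusted p = 0.0185 by edgeR) and CRY1 with 0.32 ± 0.11 (adjusted p = 0.0399 by edgeR). PER2 (0.44 ± 0.25) and DBP (0.29 ± 0.29) did not pass. The DEC genes were lower in number 2: BHLHE40 with -0.83 ± 0.12 (adjusted p = 0.000117 by edgeR) and BHLHE41 with -1.31 ± 0.24 (adjusted p = 0.000929 by edgeR). With DESeq2, NR1D1 (adjusted p = 0.23), CRY2 (0.169) and CRY1 (0.226) lost this call, and the other 5 passed.

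**Figure D3:**
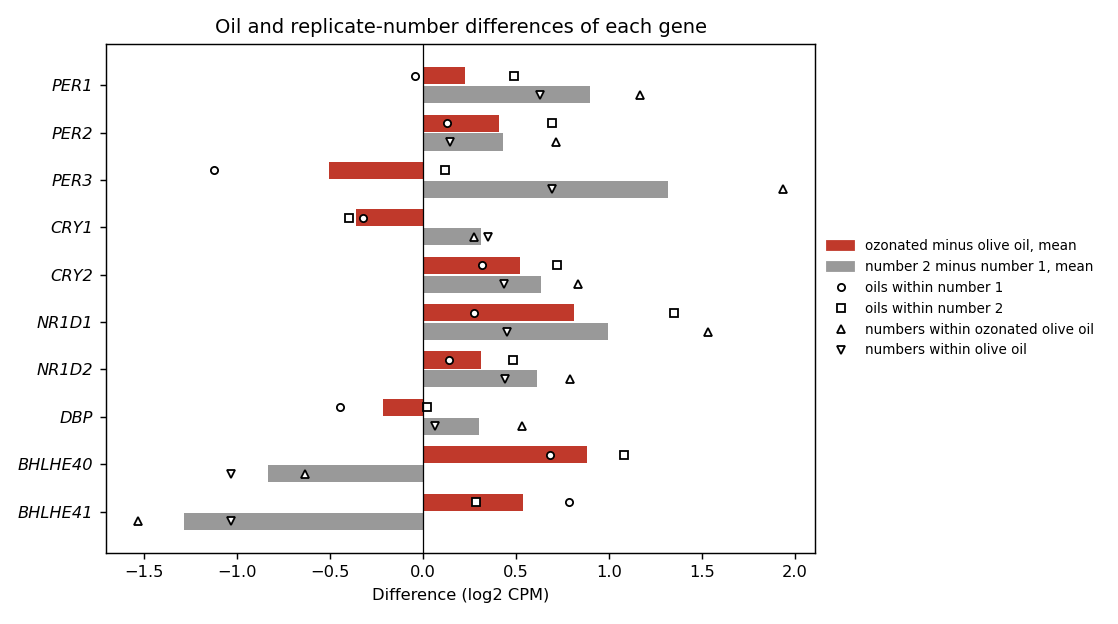
For each clock gene, the mean difference between the ozonated oil and olive oil (red bar) and between libraries numbered 2 and 1 (grey bar), in log2 CPM; circles and squares are the oil differences within numbers 1 and 2, and triangles the number differences within each oil (up, ozonated; down, olive). The grey bars point right for 8 genes and left for BHLHE40 (mean -0.83) and BHLHE41 (-1.28), while the red bars of these last genes point right (0.88 and 0.54).

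BHLHE40 and BHLHE41 were the 2 clock genes that were higher with the ozonated oil within both numbers and lower in number 2 within both oils. Context genes outside the HIF list had these signs too, among them RORA, NPAS2, NAMPT and CREM. The share of all tested genes with these signs together was not computed. Of the HIF targets, 10 genes listed as context, 8 had all of these signs. The exceptions were PDK1 and ANKRD37, which were slightly higher in number 2 with the ozonated oil (log2 0.09 and 0.14). All 10 HIF targets were higher with the ozonated oil within both numbers (31.6% of all tested genes), with a median of 1.12. This list, like all lists here, was chosen with earlier results of these data known, so its counts are no independent observation. In number 2, 8 of 10 were lower in both oils (36.4% of all tested genes), with 5 past the test of the number (13.3%). Between the oils 0 passed, and 4 had an unadjusted p under 0.05 by edgeR (3.84% of all tested genes). KDM3A, a histone demethylase, lay at 116 and 116 CPM in the ozonated libraries and 57.1 and 42.7 CPM in the olive oil libraries. PDK1, the kinase that restrains pyruvate dehydrogenase, had a log2 fold change of 1.20 ± 0.18 (SE), ANKRD37 had 1.61 ± 0.31, and SLC2A1, the glucose transporter GLUT1 and most abundant of the list, had 0.30 ± 0.22. The part of these genes' signal in the BHLHE40 and BHLHE41 values was not tested.

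PER1, PER2, CRY2, NR1D1 and NR1D2 were highest in ozonated library 2, and so were several fast responders to CREB and SRF. PER3 and DBP were highest there too, but within counting error of olive oil library 2 (1.08, 0.843 to 1.39, and 1.01, 0.729 to 1.41). How large a share of all tested genes was highest in that ozonated library was not computed. FOS lay at 13.2 and 125.1 CPM in ozonated libraries 1 and 2, against 3.68 and 4.93 CPM in olive oil libraries 1 and 2. EGR1 lay at 58.2 and 474.4 CPM in ozonated libraries 1 and 2, against 23.3 and 33.6 CPM in olive oil libraries 1 and 2. NR4A1, the most abundant of the list, lay at 112.6 and 500.5 CPM with the ozonated oil, against 67.4 and 132.7 CPM with olive oil. All 3 encode transcription factors of the immediate early response. CREM, a CREB family factor, had 46.9 and 43.1 CPM with the ozonated oil, against 35.2 and 29.3 CPM with olive oil, so it was not highest in ozonated library 2. Of 9 tested genes of 10, 0 passed between the oils and 4 had an unadjusted p under 0.05 by edgeR (3.84% of all tested genes), and 7 were higher within both numbers (31.6%). The list's medians were 0.41 within number 1 and 1.65 within number 2. SIK1 was not tested, with at most 4 counts per library. The part of this signalling in the clock genes' values was not tested.

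Glucocorticoid targets and their receptor gene lay on both sides between the oils. Of 8 tested genes of 9, 3 were higher (31.6% of all tested genes) and 2 lower (31.1%) within both numbers, with a median of -0.17 over the fitted values and medians of 0.17 and -0.04 within numbers 1 and 2. SGK1, a kinase induced by glucocorticoids, was at 38.8 and 42.5 CPM in the ozonated libraries, against 51.2 and 76.6 CPM in the olive oil libraries (log2 fold change -0.65 ± 0.22, SE; adjusted p = 0.9998, unadjusted p = 0.0308 by edgeR). The receptor gene NR3C1 had 0.15 ± 0.14 and ERRFI1, the most abundant, 0.23 ± 0.21. In the test of the number, 6 of 8 were higher in the libraries numbered 2 (11.1% of all tested genes) and 1 lower (13.3%). ZBTB16 had 0 counts in every library.

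For the activating arm of the loop, of 6 tested genes, 0 passed, 2 were higher (31.6% of all tested genes) and 1 lower (31.1%) within both numbers, and the median was 0.08. RORA, which activates BMAL1 where the REV-ERB receptors repress it, lay at 10.7 and 9.43 CPM in ozonated libraries 1 and 2, against 5.24 and 1.74 CPM in olive oil libraries 1 and 2. Both ozonated libraries were above both olive oil libraries, with a fitted log2 value of 1.52 ± 0.55 (SE; unadjusted p = 0.0393, adjusted p = 0.9998 by edgeR) and within-number values of 1.02 and 2.38. BMAL1, the target on which RORA and the REV-ERB receptors meet, had 12.3 and 11.8 CPM with the ozonated oil, against 12.9 and 9.86 CPM with olive oil (log2 fold change 0.08 ± 0.22). RORB had 0.56 ± 0.76 and NPAS2, the most abundant, 0.08 ± 0.25. In the test of the number, 3 of the 6 were lower in the libraries numbered 2 (BMAL2, NPAS2 and RORA; 13.3% of all tested genes) and 1 was higher (RORB; 11.1%).

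Among other D-box factors, TEF had 3.74 and 9.39 CPM in ozonated libraries 1 and 2, against 3.72 and 7.71 CPM in olive oil libraries 1 and 2, with a log2 fold change of 0.20 ± 0.58 (SE). NFIL3, which represses from the D-boxes that DBP and TEF activate, had 20.3 and 16.9 CPM with the ozonated oil, against 12.8 and 14.1 CPM with olive oil, with both ozonated libraries above both olive oil libraries (0.47 ± 0.19, SE; unadjusted p = 0.0576 by edgeR). HLF was not tested, with at most 4 counts per library. Of 12 genes that modify clock proteins, 0 passed, 7 were higher (31.6% of all tested genes) and 3 lower (31.1%) within both numbers, and the median was 0.06. CIART, a repressor of CLOCK and BMAL1, had 18 and 25 counts in the ozonated libraries, against 12 and 10 counts in the olive oil libraries (1.26 ± 0.52, SE; unadjusted p = 0.0608 by edgeR). TIMELESS had -0.15 ± 0.11, the ubiquitin protease gene USP2 -0.58 ± 0.42 and the corepressor gene NCOR1, the most abundant, 0.06 ± 0.10. Of 7 clock-controlled outputs, 0 passed, 5 were higher (31.6% of all tested genes) and 0 lower (31.1%) within both numbers, with a median of 0.20. The cytochrome reductase gene POR had 0.28 ± 0.13, the mitotic kinase gene WEE1 0.25 ± 0.15, the heme synthesis gene ALAS1 0.20 ± 0.14, and NAMPT, the enzyme gene of NAD salvage and most abundant of the list, 0.25 ± 0.19.

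**Figure D4:**
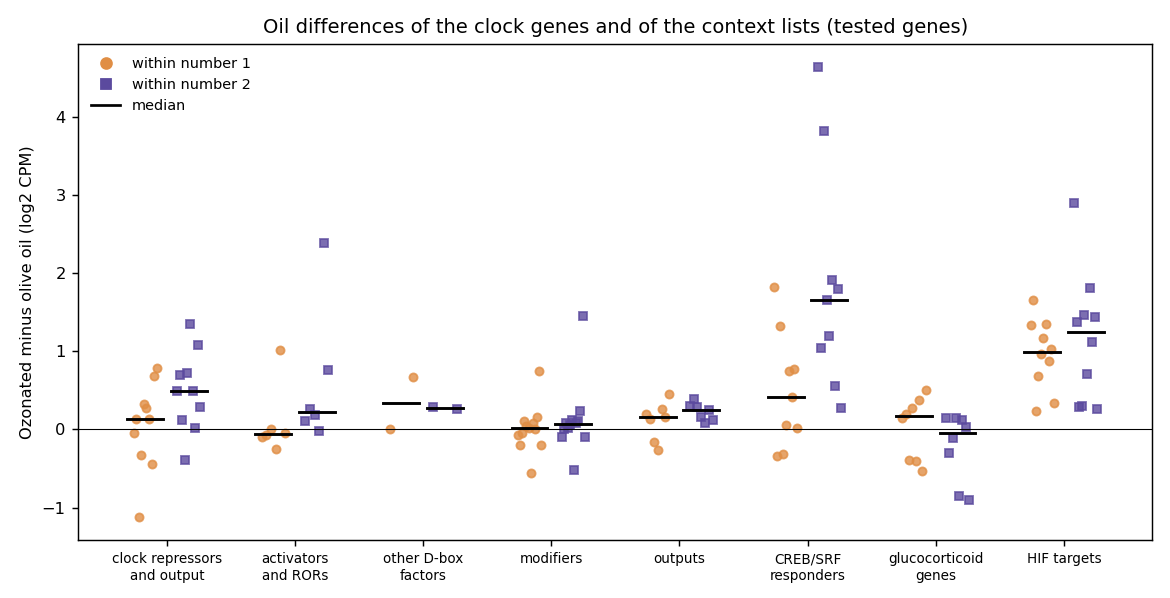
Difference between the ozonated oil and olive oil (log2 CPM) for every tested gene of the clock set and of 7 context lists, within number 1 (circles) and within number 2 (squares), with medians as black lines. The CREB and SRF responders (medians 0.41 and 1.65) and HIF targets (0.99 and 1.24) lie highest, the modifiers of clock proteins (0.01 and 0.07) lie near 0, and the clock genes (0.13 and 0.49) lie between.

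Genes with the closest pattern over the 4 libraries were sought among 11007 tested genes with a mean log2 CPM of 2 or more, by the distance of centred log2 CPM, which with 4 points many genes can share. Nearest to PER1 were a gene without a symbol in the table (Entrez ID 105373132, distance 0.0924), YOD1 (0.0964) and TET1 (0.116). Nearest to NR1D1 were SNORD80 (0.256), the nuclear long noncoding RNA NEAT1 (0.265) and another gene without a symbol (Entrez ID 100506548, 0.307). NEAT1 lay at 488 and 1120 CPM in ozonated libraries 1 and 2, against 325 and 478 CPM in olive oil libraries 1 and 2. Nearest to DBP were STAG3L5P-PVRIG2P-PILRB (0.0244), HASPIN (0.0300) and FAM117B (0.0416). Nearest to BHLHE40 were MLLT11 (0.151), the phosphatase gene DUSP10 (0.220) and AKR1C1 (0.229), a reductase gene with near-identical copies. DUSP10 lay at 57.8 and 38.8 CPM in ozonated libraries 1 and 2, against 33.2 and 20.0 CPM in olive oil libraries 1 and 2. As landmarks, HMOX1, the heme oxygenase gene, differed by 3.56 ± 0.66 on the log2 scale (SE; adjusted p = 0.9998 by edgeR), MITF -0.33 ± 0.22, ACTB -0.32 ± 0.10 and GAPDH 0.33 ± 0.10.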

How the data were processed

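RNA was sequenced from 4 A375 libraries with a directional kit, per the labels' protocols. The deposited table holds raw counts per gene. The submitters' processing notes name, without role or order, edgeR, bedtools 2.27.1, SAMtools 1.9, HISAT2 2.1.0, StringTie 1.3.4d, FastQC 0.11.7, bcl2fastq and hg38. How reads were counted, with which annotation and strand setting, is not given in the sources used here. Overlapping genes may therefore share reads. Genes without a symbol (617) were kept.

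The analysis used edgeR 4.0.16 (R 4.3.3): filterByExpr, TMM (factors 0.972 to 1.02) and a two-sided quasi-likelihood test with Benjamini-Hochberg adjustment over 14841 genes at 0.05, without a block. CPM use TMM-scaled totals. Within-number differences use log2 CPM with a prior count of 2 and have no test. With 2 libraries against 2, an exact permutation test cannot go below p = 0.333. Counting intervals of ratios are exact binomial (SciPy 1.17.1), at 95%. A count of 0 allows up to 0.108 to 0.135 CPM (3 counts). No libraries were duplicates: the chi-square per degree of freedom between libraries of a group was 40.4 for the ozonated oil and 44.5 for olive oil. The script was tested on simulated data.

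The clock genes and all lists were chosen with earlier results of these data known. Named were all 10 clock genes, the 3 genes of smallest p and the most abundant gene of each other list, the 3 nearest genes of PER1, NR1D1, DBP and BHLHE40, and 4 landmarks. THRA, SPHK2 and NKIRAS1 are named for their overlap with clock genes. Alternatives were other scalings (RLE, upper quartile, totals only), filters and prior counts, DESeq2 1.42.0, limma-voom (limma 3.58.1), an exact test in edgeR, a block for the replicate number, and leaving out each library.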

Additional observations from a re-analysis of the deposited data

How the results depend on the processing

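Under other scalings, filters and limma-voom, the log2 fold change of no clock gene changed sign and none passed the oil test. Totals-only scaling gave 2 clock genes lower within both numbers in place of 1, and prior counts of 0.5 and 5, run for the within-number counts alone, gave 6 higher and 1 lower as before. DESeq2 called 42 genes higher and 23 lower with the ozonated oil, with 2 context genes higher, and the edgeR exact test 22 and 13, also with 2 context genes higher. No paired design is stated, and with 2 pairs the libraries share only a number, although same-number deviations correlated at 0.672. With the replicate number as a block, edgeR called 468 genes higher (3.15% of tested genes) and 373 lower (2.51%). Among them were 2 clock genes, both higher, NR1D1 (log2 0.85, adjusted p = 0.0146 by edgeR) and BHLHE40 (0.87, adjusted p = 0.000299 by edgeR), with 15 context genes higher and 1 lower. DESeq2 with this block, added after seeing the data, called 212 higher and 148 lower, with 1 clock gene (BHLHE40), 7 context genes higher and 1 lower. It gave no adjusted p for PER2, PER3, DBP and BHLHE41. A call gained or lost under the block is no measure of the effect's size. For the number itself, DESeq2 called 711 genes higher and 1003 lower in number 2, with 3 clock genes higher and 2 lower.

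Leaving out a library gives 1 group a lone library, whose spread is taken from the other group, and mixes oil with number. Calls then ranged from 0 to 4 genes higher and from 0 to 1 lower, with 0 to 2 context genes higher. The log2 fold change changed sign for 5 clock genes, with ranges of -0.39 to 0.78 for PER1, -1.56 to 0.43 for PER3, -0.10 to 0.69 for NR1D2, -0.49 to 0.054 for DBP and -0.33 to 1.27 for BHLHE41. It also did for RORB (-0.79 to 1.31), BMAL1 (-0.094 to 0.29), NPAS2 (-0.18 to 0.41), TEF (-0.61 to 0.82), ERRFI1 (-0.010 to 0.52), Entrez ID 105373132 (-0.51 to 0.76), YOD1 (-0.32 to 0.72), TET1 (-0.49 to 0.85), SNORD80 (-0.14 to 1.36), STAG3L5P-PVRIG2P-PILRB (-0.47 to 0.039), HASPIN (-0.48 to 0.020) and FAM117B (-0.53 to 0.030). The cause of these shifts was not tested. Depth limits DBP, PER2, PER3 and BHLHE41, each with under 100 counts in at least 1 library.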
